A study of Vitis vinifera with 36 samples.

Results

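Harvest-ripe berries of grapevines that had been sprayed with NAA were compared directly with berries of vines sprayed with ABA, to ask which gene expression differences between the 2 hormones were still present at technological maturity. The comparison used 6 of the 36 RNA-seq libraries of the study, 3 labelled NAA100 at E-L 38 and 3 labelled ABA1000 at E-L 38, and it was made for 17598 of the 25280 genes listed. All vines were of the cultivar Cabernet Sauvignon, and the clusters were sprayed at E-L 33, while the berries were hard and green, with 100 mg/L NAA, with 1000 mg/L ABA or with a control solution, each containing 0.05% Tween 20. Each of the 3 replicates came from its own plot of vines, and RNA was taken from whole berries without seeds. Each group was sampled when its own berries reached a stage of the E-L system (E-L 34, the onset of softening, E-L 35, veraison, E-L 36, berries of intermediate sugar, and E-L 38, harvest), so treatment and calendar date cannot be told apart. The 3 control libraries at E-L 38 are given as the untreated background.

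NAA is a synthetic auxin that plants inactivate more slowly than their own auxin, and auxin holds back the onset of berry ripening. ABA is a hormone that rises around veraison and promotes colouring, softening and sugar storage. Both act through transcription, auxin by removal of the AUX/IAA repressors of auxin response factors, and ABA by releasing SnRK2 kinases, which activate the ABF transcription factors.

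The table gives FPKM, fragments scaled to transcript length and to the mapped fragments of the library, and no counts, but the value of a single fragment in low genes placed the depth of the 6 libraries between 0.928 and 1 relative to the deepest. The 10 most abundant genes took 26.3% to 27.0% of the summed FPKM in the NAA libraries and 18.1% to 20.2% in the ABA libraries. Control libraries 1 and 3 at E-L 38 stood apart from control library 2 in defence genes, and the values against the control and along the line of control development are also given without them, a setting chosen after the values were seen. The NAA libraries labelled E-L 36 lay near ripe control berries in overall expression. On the line from control berries at E-L 34 (0%) to control berries at E-L 38 (100%), drawn over the 4836 genes (27.5%) called between these, they lay at 94.8%, 101% and 102%, while ABA libraries at E-L 36 lay at 33.6% to 35.5% and control libraries at 36.1% to 46.4%. Without control libraries 1 and 3 of E-L 38 these ranges were 103.6% to 109.5%, 35.8% to 39.9% and 39.98% to 51.0%. Only 2 genes (0.0114%) were called between NAA at E-L 38 and NAA at E-L 36, compared with 3401 (19.3%) for ABA.

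At E-L 38, 396 genes (2.25%) were called between the hormones, at a limma adjusted p of at most 0.01 and a difference of at least 1 on the log2(FPKM + 1) scale. NAA berries were higher in 92 of them (0.523%) and lower in 304 (1.73%), so 23.2% of the calls were higher with NAA. The 3 NAA and 3 ABA libraries did not overlap in any of the 92 higher genes, nor in 301 of the 304 lower ones. Over all genes tested, 12.1% had all NAA libraries above all ABA libraries and 35.4% had them all below, and the median difference of all genes was -0.10. The split of the calls depends on this shift. With median-of-ratios scaling the median became 0.01 and the calls 139 higher and 211 lower (39.7% higher), and with quantile normalization 127 higher and 198 lower (39.1% higher), without a change of sign in any of the 396 genes. The median size of the difference was 1.21 in the higher and 1.28 in the lower genes, and 11 of the higher and 21 of the lower genes differed by at least 2 on the log2 scale.

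**Figure D1:**
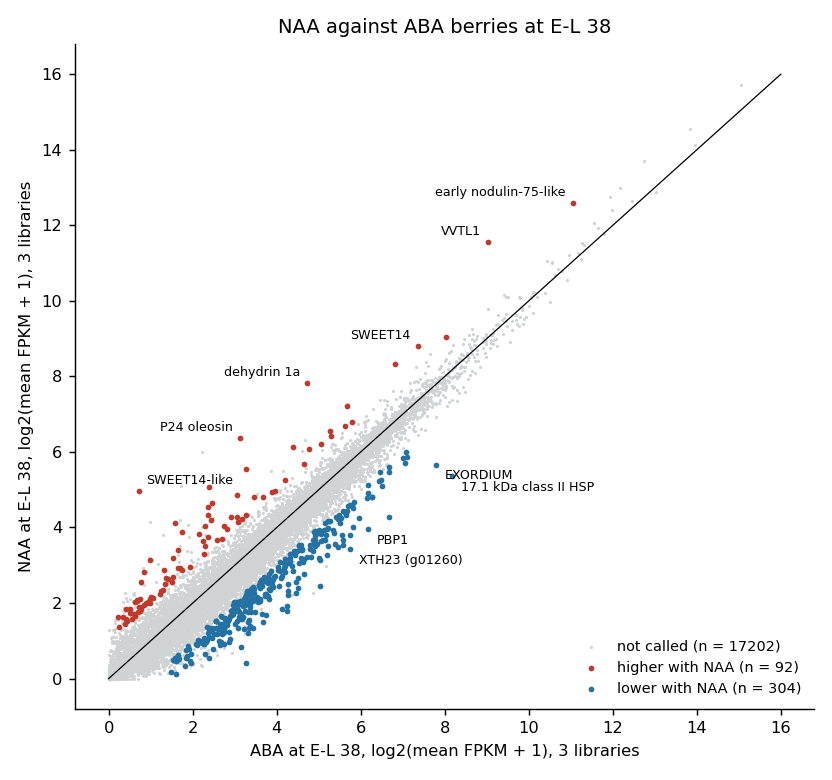
Mean expression of each gene tested in the 3 ABA libraries (horizontal axis) and the 3 NAA libraries (vertical axis) at E-L 38, both as log2(mean FPKM + 1), with the 92 genes called higher with NAA in red, the 304 called lower in blue and the diagonal as the line of equal expression. The called genes lower with NAA outnumber the higher ones, while the most abundant called genes, early nodulin-75-like and VVTL1, lie above the diagonal.

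Among the 11 most abundant genes of the ripe berry, 1 was called. The early nodulin-75-like gene VIT_205s0049g00550, which encodes a proline-rich protein, was at 6349, 5684 and 6363 FPKM with NAA and 1797, 2142 and 2441 FPKM with ABA. These values did not overlap (log2 difference 1.54 ± 0.29, SE, limma adjusted p = 0.000274), and the ratio of the mean FPKM was 2.88. The call was lost only with quantile normalization among 17 other settings. VIT_205s0049g00520, for which the annotation gives no name, held 9.55% of the FPKM with NAA and 6.50% with ABA (means 53635 and 34155 FPKM, log2 difference 0.64, limma adjusted p = 0.0115). The grip22 gene VIT_206s0004g02560, a ripening-related gene, had means of 8164 and 4601 FPKM (log2 difference 0.83, limma adjusted p = 0.0243), and the class IV chitinase VIT_205s0094g00340, a defence protein that builds up in ripe berries, 6875 and 3926 FPKM (0.81, limma adjusted p = 0.0153). None of these 3 was called.

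**Figure D2:**
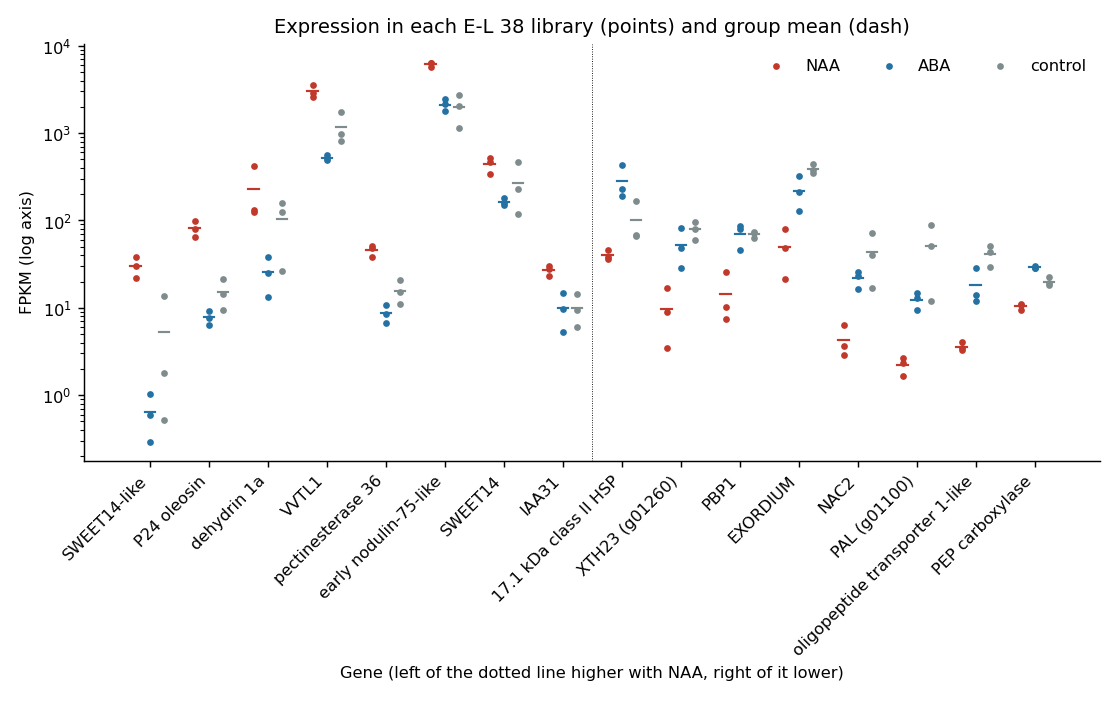
FPKM (log axis) of 16 named genes in each of the 9 libraries at E-L 38, with 1 point per library, NAA in red, ABA in blue and control in grey, and a dash at the group mean. For the 8 genes left of the dotted line every NAA point is above every ABA point, and for the 8 to the right every NAA point is below.

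Sugar transporters of the SWEET family, which let sugars pass through membranes down their gradient, gave the largest difference. The SWEET14-like gene VIT_217s0000g00820 (chromosome 17, 546206 to 548782) was at 29.8, 38.4 and 22.1 FPKM with NAA and 0.292, 0.5904 and 1.03 FPKM with ABA. The lowest NAA library was far above the highest ABA library, and the difference was the largest of the 92 higher genes (log2 difference 4.24 ± 0.47, SE, limma adjusted p = 4.8e-07), with a ratio of mean FPKM of 47.3. In the control libraries it was at 1.79, 13.6 and 0.522 FPKM, so control library 2 lay between the groups. Its neighbour SWEET14 VIT_217s0000g00830 (chromosome 17, 550873 to 553026) was at 466, 519 and 344 FPKM with NAA and 159.9, 150.01 and 182 FPKM with ABA, again without overlap (log2 difference 1.41 ± 0.28, SE, limma adjusted p = 0.000514). Another SWEET member on chromosome 7, VIT_207s0104g01340, unnamed in the annotation, was at 31.2, 33.3 and 19.7 FPKM with NAA and 6.63, 5.85 and 9.29 FPKM with ABA (log2 difference 1.802 ± 0.27, SE, limma adjusted p = 2.27e-05). These 3 were the called members of the 10 SWEET genes tested, beside 0.523% of all genes called higher. The other 7 had differences between -0.26 and 0.33. Summed over the 10 SWEET genes tested, the mean FPKM was 529.9 with NAA and 203.7 with ABA. With the replicate number as a block in the 6 libraries alone, VIT_217s0000g00820 kept the call and the other two lost it. SWEET14 VIT_217s0000g00830 also lost it in the fit of the 9 libraries of E-L 38, and VIT_207s0104g01340 with a pseudocount of 0.1. In the wider list of sugar transport and sucrose genes, which does not hold the ERD6-like transporter VIT_205s0020g02170 (called lower, log2 difference -1.51), they were the calls among 27 members, whose median of -0.01 was close to that of all genes and turned to 0.07 with median-of-ratios scaling. A sucrose synthase, VIT_211s0016g00470, which splits sucrose, had a log2 difference of -0.77 (limma adjusted p = 3.48e-05), under the threshold of size.

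A thaumatin-like gene, an oleosin and a dehydrin were also called higher in NAA berries. VVTL1 VIT_202s0025g04330 (chromosome 2, 3821899 to 3822797), a thaumatin-like protein of ripe berries with antifungal activity, was at 2894, 3587 and 2599 FPKM with NAA and 516, 555 and 489 FPKM with ABA. The groups were clearly apart (log2 difference 2.53 ± 0.53, SE, limma adjusted p = 0.000734), and the controls, at 972, 1726 and 802 FPKM, lay between them. P24 oleosin VIT_214s0066g00700 (chromosome 14, 27168533 to 27169135), a coat protein of oil bodies, was at 79.8, 97.8 and 65.3 FPKM with NAA and 7.58, 9.29 and 6.43 FPKM with ABA. It did not overlap between the groups and was 10.4 times higher with NAA (log2 difference 3.22 ± 0.50, SE, limma adjusted p = 2.89e-05). Dehydrin 1a VIT_204s0023g02480 (chromosome 4, 19034554 to 19035405), a protein of the late embryogenesis abundant (LEA) type that accumulates in drying seeds and stressed tissue, was at 133, 422 and 125 FPKM with NAA and 24.9, 38.2 and 13.2 FPKM with ABA (log2 difference 2.98 ± 0.84, SE, limma adjusted p = 0.00921). NAA library 2 was the highest, and the call was lost in 9 of 17 other settings.

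Most seed transcripts had their highest NAA value in library 2, though not oleosin 1, which was called. Of the 15 seed storage and oleosin genes tested, 2 were called, both higher with NAA, P24 oleosin and oleosin 1 VIT_204s0008g00540 (2.53, 2.58 and 3.38 FPKM with NAA and 0.868, 0.876 and 0.629 FPKM with ABA, log2 difference 1.09 ± 0.23, SE, limma adjusted p = 0.000872). Of these 15 genes, 11 had their highest NAA value in library 2, as did 10 of the 12 LEA and dehydrin genes. The summed FPKM of the 18 seed genes listed was 210.3, 416 and 198 in NAA libraries, 137, 145 and 136 in ABA libraries and 305, 223 and 173 in control libraries. Without P24 oleosin it was 130.5, 319 and 132 with NAA and 129.8, 136 and 129.7 with ABA, so NAA library 2 alone stood out among these 6. The vicilin-like gene VIT_207s0151g00640, a seed storage protein, was at 16.3, 169 and 4.64 FPKM with NAA and 0.426, 10.1 and 0.595 FPKM with ABA, and these overlapped (limma adjusted p = 0.298). Of the 18, 1 was at 0 in all NAA libraries and 2 were at 0 in all ABA libraries. The part of residual seed tissue in the dehydrin and oleosin differences was not tested. The median of the 12 LEA genes was 1.19 and that of the 15 seed genes 0.79, beside -0.10 for all genes. Called higher were 1 and 2 members, beside 0.523% of all genes. Without NAA library 2 these medians were 0.50 and 0.33, with 0 LEA members called (smallest limma adjusted p = 0.0636) and 2 seed members. The dehydrin 1a call was also lost without any other single NAA or ABA library, and with the replicate block 2 LEA members were higher and 1 lower. The abundant dehydrin ERD14 VIT_218s0001g00360 was at 2179, 2228 and 2235 FPKM with NAA and 2385, 2534 and 2386 FPKM with ABA (log2 difference -0.14).

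**Figure D3:**
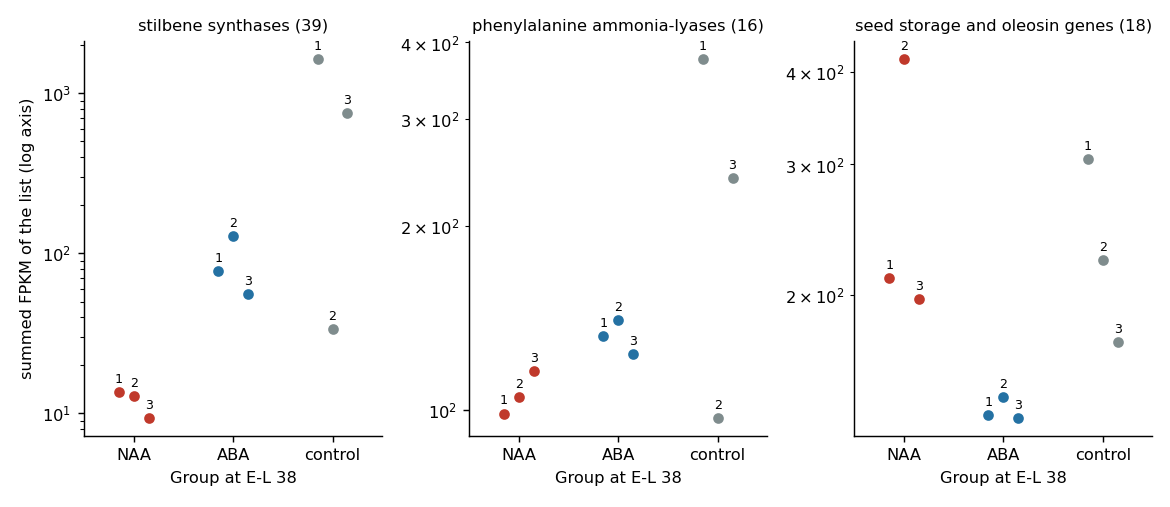
Summed FPKM (log axes) of 39 stilbene synthases, 16 phenylalanine ammonia-lyases and 18 seed storage and oleosin genes in each library at E-L 38, with library numbers beside the points. Stilbene synthases are below 14 FPKM in all NAA libraries and above 55 FPKM in all ABA libraries, control libraries 1 and 3 exceed control library 2 in the first 2 panels, and NAA library 2 has the highest seed sum.

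Called cell wall genes differed in both directions. Of 84 genes of wall loosening and pectin tested, 4 were higher and 12 lower with NAA, beside the 23.2% of all calls that were higher, with a median of -0.18. Over all genes, 0.523% were called higher and 1.73% lower. Xyloglucan endotransglucosylases (XTH), which cut and rejoin xyloglucan chains, gave 6 of the 12 lower calls among 21 members, with a median of -0.63. Among these, 4 were XTH23-like copies close together on chromosome 11. The copy VIT_211s0052g01260 (chromosome 11, 18989158 to 18990290) was at 3.499, 8.92 and 16.8 FPKM with NAA and 28.3, 47.8 and 82 FPKM with ABA (log2 difference -2.41 ± 0.45, SE, limma adjusted p = 0.000229), a level 5.41 times higher with ABA. VIT_211s0052g01300 followed the same order, with 0.5802, 2.32 and 5.37 FPKM with NAA and 10.6, 16.2 and 26.8 FPKM with ABA (log2 difference -2.46 ± 0.43, SE, limma adjusted p = 0.000128). In both groups library 1 was the lowest and library 3 the highest for these copies, and the NAA and ABA libraries nevertheless did not overlap. The other neighbours VIT_211s0052g01190 and VIT_211s0052g01180 had log2 differences of -2.36 and -2.004 (limma adjusted p = 4.5e-05 and 0.000369). Fitting only the 6 libraries ended the call of all 4, while that fit with the replicate block called all 4 (6 XTH lower, beside 3 without the block), and reads may be shared among such near-identical copies. The most abundant XTH, VIT_206s0061g00550, had means that ran the other way, at 2120.5, 2008 and 2121 FPKM with NAA and 1672, 1630.3 and 1219 FPKM with ABA (log2 difference 0.48, limma adjusted p = 0.0907, not called), and it made up most of the summed XTH expression of 2450 ± 87.2 FPKM with NAA and 1966 ± 189.9 FPKM with ABA (SD, n = 3).

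Further wall genes lower with NAA included EXORDIUM, expansin, endoglucanase and cellulose synthase-like genes. EXORDIUM VIT_218s0001g06150 (chromosome 18, 4652464 to 4653648), a brassinosteroid-responsive protein that promotes cell expansion in Arabidopsis, was at 21.3, 47.9 and 80.1 FPKM with NAA and 127, 209.9 and 321 FPKM with ABA. The groups did not overlap (log2 difference -2.21 ± 0.39, SE, limma adjusted p = 0.000122), and its neighbour VIT_218s0001g06170 had a log2 difference of -2.06 (limma adjusted p = 0.000689). Expansin-like A2 VIT_203s0038g03430, related to the proteins that loosen walls at low pH, was at 20.4, 26.1 and 33.2 FPKM with NAA and 51.98, 62.8 and 95.7 FPKM with ABA (log2 difference -1.35 ± 0.22, SE, limma adjusted p = 6.03e-05), 1 of 2 lower genes among 15 expansins tested. The endoglucanase gene VIT_200s0340g00060, of a family that cuts glucan chains, was at 2.82, 3.37 and 3.79 FPKM with NAA and 7.91, 8.29 and 11.8 FPKM with ABA (log2 difference -1.24 ± 0.17, SE, limma adjusted p = 8.15e-06). This call held in all 17 other settings, and 2 of the 10 endoglucanases tested were lower. Among the cellulose synthase family, 2 of 28 members were called, the cellulose synthase-like genes CslD2 VIT_202s0012g02190 and CslD3 VIT_216s0039g02020, with log2 differences of -1.198 and -1.11 (limma adjusted p = 4.73e-06 and 0.000109). Without ABA library 2 the count of the family was 4. In the main fit, 0 of the 10 cellulose synthases proper were called, and 1.73% of all genes were called lower.

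Pectin genes held the wall calls that were higher with NAA. The pectinesterase gene VIT_215s0048g00500 (chromosome 15, 14614498 to 14617628), whose product removes methyl groups from pectin, was at 48.3, 51.4 and 38.4 FPKM with NAA and 10.7, 8.55 and 6.74 FPKM with ABA. Its lowest NAA value exceeded its highest ABA value by a wide margin (log2 difference 2.29 ± 0.51, SE, limma adjusted p = 0.00135). Of 18 pectinesterases and inhibitors tested, 2 were higher and 2 lower, beside 0.523% and 1.73% of all genes. Both called members of the polygalacturonase list were higher, among 13 tested. One was the polygalacturonase inhibitor VIT_208s0007g07690, which restrains pectin-cutting enzymes rather than cutting pectin, at 31.7, 33.2 and 23.6 FPKM with NAA and 14.1, 16.7 and 10.6 FPKM with ABA (log2 difference 1.05 ± 0.28, SE, limma adjusted p = 0.0059).

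**Figure D4:**
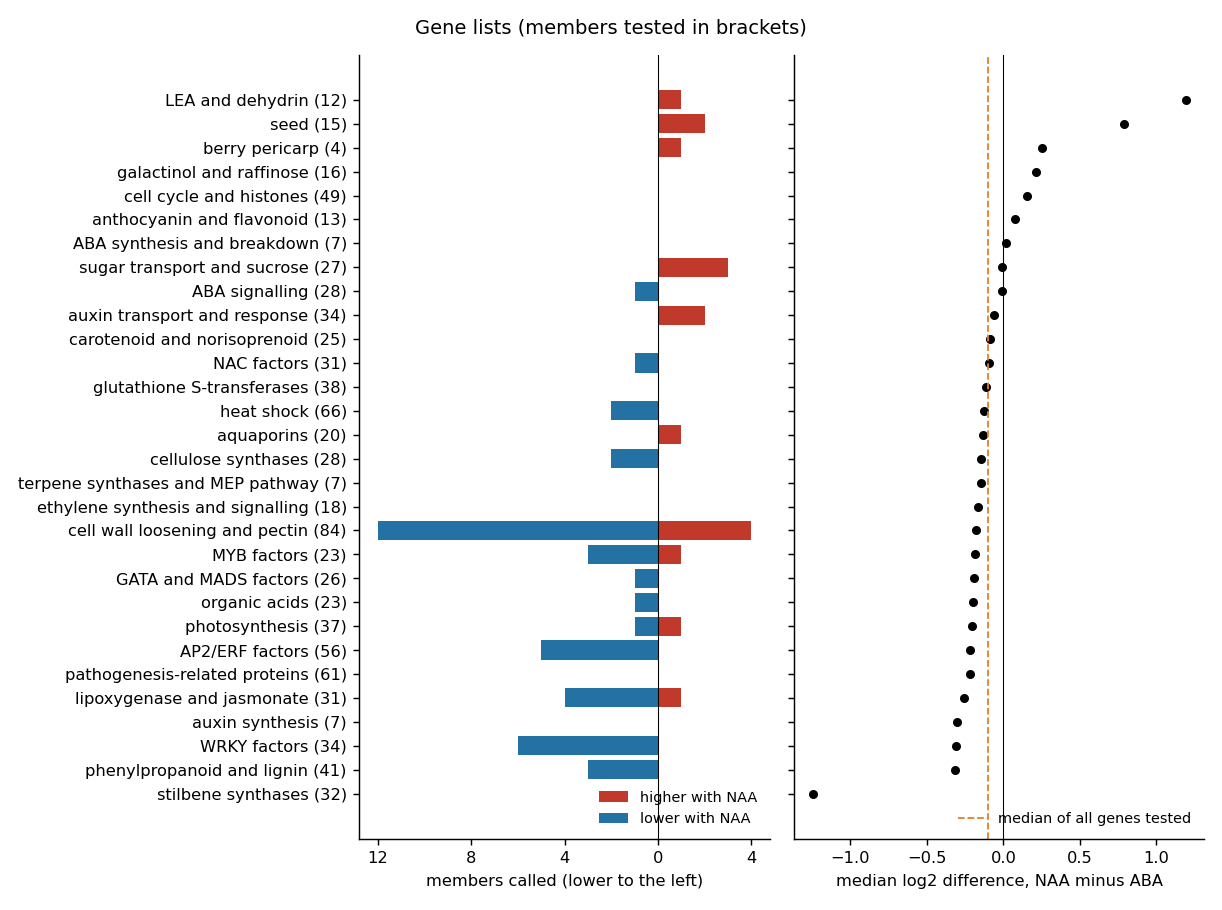
Members called higher (red, to the right) or lower (blue, to the left) with NAA at E-L 38 in each gene list, and the median log2 difference of the members tested (right panel), beside the median of all genes tested (dashed, -0.10). Cell wall genes hold the most calls (4 higher, 12 lower), stilbene synthases have the lowest median (-1.25) without a call, and the LEA and dehydrin median of 1.19 becomes 0.50 without NAA library 2.

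Genes of the phenylpropanoid pathway, which leads from phenylalanine to lignin, stilbenes and flavonoids, held 3 calls among 41 members tested. All 3 were lower with NAA, beside 1.73% of all genes called lower, and 2 of them were at the entry of the pathway. Phenylalanine ammonia-lyase (PAL) catalyses the first step. The PAL gene VIT_216s0039g01100 (chromosome 16, 598409 to 601085) was at 1.64, 2.66 and 2.35 FPKM with NAA and 9.37, 13 and 14.9 FPKM with ABA, and did not overlap (log2 difference -2.05 ± 0.46, SE, limma adjusted p = 0.00137). In control libraries it was at 89.2, 12.01 and 50.8 FPKM. Another PAL gene, VIT_216s0039g01170, was at 1.08, 1.09 and 1.02 FPKM with NAA and 5.21, 8.801 and 5.099 FPKM with ABA (log2 difference -1.801 ± 0.50, SE, limma adjusted p = 0.00873), a call that held in 5 of 16 other settings. These were the 2 calls among 12 PAL genes tested, whose median was -1.11. The count was 1 with the replicate block or without any single NAA or ABA library, 0 in the fit of the 9 libraries of E-L 38, 7 without control libraries 1 and 3, and 5 when the 6 NAA and ABA libraries were fitted alone. Without ABA library 2 or NAA library 2 the phenylpropanoid list had 1 call. The summed expression of all 16 PAL genes differed less, at 106.5 ± 8.69 FPKM with NAA and 132 ± 8.41 FPKM with ABA (SD, n = 3). The most abundant member, VIT_213s0019g04460, had means of 72.7 and 68.6 FPKM (limma adjusted p = 0.936).

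Stilbene synthases, which make the phytoalexin resveratrol, were below the ABA level in every NAA library when summed. The 39 genes together reached 13.6, 12.9 and 9.38 FPKM with NAA and 77.7, 128 and 56.0 FPKM with ABA, a ratio of 7.29. Of 32 members tested, 31 (96.9%) had all 3 NAA libraries below all 3 ABA libraries, beside 35.4% of all genes, and the median difference was -1.25. The most abundant member with ABA, VIT_216s0100g00830, was at 1.699, 1.06 and 1.04 FPKM with NAA and 7.41, 11.7 and 6.29 FPKM with ABA (log2 difference -2.03, limma adjusted p = 0.0194). The limma fit of all 36 libraries called 0 of the 32 (19 had an unadjusted p under 0.05, all lower, and the smallest adjusted p was 0.0106). Control libraries 1 and 3, with stilbene synthase sums of 1631 and 751 FPKM beside 33.7 FPKM in control library 2, enter the spread of that fit. Without these 2 libraries, a setting chosen after the values were seen, 20 of the 32 were called lower, and in the fit of the 6 NAA and ABA libraries alone 13 were. Reads can be shared among these close copies, so single members are less certain than the sum.

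All called members of the WRKY, AP2/ERF and NAC families of transcription factors were lower with NAA in the main fit. The list of MYB factors, with 23 members tested, had 1 higher and 3 lower calls. Over all genes, 304 of the 396 calls were lower (1.73% of genes) and 92 higher (0.523%). Of 34 WRKY factors tested, 6 were called, all lower, with a median of -0.31. Without ABA library 2 or without NAA library 1 the count was 2, and without ABA library 3 it was 3. WRKY40-like VIT_209s0018g00240, of a group that responds to pathogens and wounding, was at 3.12, 5.85 and 7.06 FPKM with NAA and 13.8, 24.3 and 26.7 FPKM with ABA. The groups did not overlap (log2 difference -1.84 ± 0.29, SE, limma adjusted p = 3.47e-05), and the call held in all 17 other settings, as it did for WRKY65 VIT_210s0003g01600 (log2 difference -1.29, limma adjusted p = 3.36e-05). WRKY22-like VIT_202s0025g00420 and WRKY31 VIT_210s0116g01200 had log2 differences of -1.74 and -1.49, and each lost the call in 5 of 17 settings. Of 56 AP2/ERF factors, which include ethylene-responsive and dehydration-responsive regulators, 5 were called, all lower. That count was 1 without ABA library 2 or without NAA library 1, 3 without ABA library 3 and 2 without NAA library 2. With a pseudocount of 0.1, 1 AP2/ERF factor was higher and 7 were lower. ERF014-like VIT_218s0001g03240 was at 7.15, 10.9 and 16.1 FPKM with NAA and 30.4, 31.9 and 34.7 FPKM with ABA (log2 difference -1.49 ± 0.30, SE, limma adjusted p = 0.000503). The dehydration-responsive DREB1E VIT_202s0025g04460 was called with overlapping values, at 2.82, 7.09 and 15.1 FPKM with NAA and 13.4, 32.6 and 29.4 FPKM with ABA (log2 difference -1.63 ± 0.40, SE, limma adjusted p = 0.00337). The DREB1E call was lost in 7 of 17 other settings. NAC2 VIT_207s0031g02610, of a plant-specific family with many stress and ripening regulators, was at 2.86, 6.34 and 3.62 FPKM with NAA and 16.4, 25.4 and 23.2 FPKM with ABA, the single call among 31 NAC factors (log2 difference -2.14 ± 0.44, SE, limma adjusted p = 0.000683). Without ABA library 1 or NAA library 2 there were 3 NAC calls, and without ABA library 2 there were 2. The calcium-binding protein PBP1 VIT_212s0134g00240 (chromosome 12, 7768803 to 7769369), whose Arabidopsis counterpart binds a kinase of auxin transport, was at 7.45, 10.2 and 25.8 FPKM with NAA and 46.02, 85.4 and 80.4 FPKM with ABA (log2 difference -2.34 ± 0.38, SE, limma adjusted p = 5.13e-05).

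Jasmonate synthesis starts with lipoxygenases and passes through allene oxide synthase and 12-oxophytodienoate reductase. Of 31 lipoxygenase and jasmonate genes tested, 1 was higher and 4 were lower, beside 0.523% and 1.73% of all genes. The lipoxygenase-list gene VIT_209s0002g01080 was at 6.06, 9.93 and 9.81 FPKM with NAA and 28.4, 42.2 and 36.97 FPKM with ABA (log2 difference -1.95 ± 0.28, SE, limma adjusted p = 1.22e-05), and lipoxygenase VIT_214s0128g00780 at 1.29, 1.72 and 1.46 FPKM with NAA and 7.85, 7.62 and 9.36 FPKM with ABA (log2 difference -1.895 ± 0.34, SE, limma adjusted p = 0.00014). Both were separated between the groups. The other lower members were the JAZ-type repressor TIFY 5A VIT_210s0003g03810 and the 12-oxophytodienoate reductase-like VIT_218s0041g02080, with log2 differences of -1.399 and -1.203. Allene oxide synthase VIT_218s0001g11630 was the member that was higher, at 48.3, 57.03 and 46.3 FPKM with NAA and 20.8, 23.3 and 28.7 FPKM with ABA (log2 difference 1.03 ± 0.21, SE, limma adjusted p = 0.000675). Its call and that of TIFY 5A were each lost in 4 of 17 other settings. In the fit of the 9 libraries of E-L 38 the list had 1 higher and 2 lower calls.

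Of 66 heat shock genes tested, 2 were called, both lower with NAA, beside 1.73% of all genes called lower. The class II small heat shock protein gene VIT_204s0008g01520 (chromosome 4, 1224823 to 1225354), a chaperone that holds unfolded proteins, was at 46.3, 36.1 and 37.8 FPKM with NAA and 231, 436 and 191 FPKM with ABA. The difference was the largest of the 304 lower genes (log2 difference -2.72 ± 0.47, SE, limma adjusted p = 0.000101), a level 7.14 times higher with ABA. Its neighbour VIT_204s0008g01580 was at 5.802, 4.38 and 3.197 FPKM with NAA and 22.4, 50.8 and 21.5 FPKM with ABA (log2 difference -2.49 ± 0.42, SE, limma adjusted p = 8.44e-05). ABA library 2 was the highest in both. The other 29 of 31 small heat shock proteins tested were not called. One of them, VIT_204s0008g01610, ran the other way in overlapping values (5.44, 45.6 and 1.198 FPKM with NAA and 0.0495, 6.596 and 0.0509 FPKM with ABA, limma adjusted p = 0.485). Its highest NAA value was in library 2, as for most of the seed genes.

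In auxin transport and response, 2 of 34 members were called, both higher with NAA, beside 0.523% of all genes called higher. The count was 1 without NAA library 2 or in the fit of the 6 libraries alone, with or without the replicate block. It was 0 in the fit of the 9 libraries of E-L 38. A pseudocount of 0.1 gave 1 higher and 2 lower members, and TPM gave 2 higher and 1 lower. IAA31 VIT_205s0020g01070 (chromosome 5, 2845405 to 2846994), an AUX/IAA repressor, was at 30.5, 22.9 and 27.5 FPKM with NAA and 5.35, 9.701 and 14.8 FPKM with ABA, and the groups did not overlap (log2 difference 1.44 ± 0.25, SE, limma adjusted p = 8.85e-05). The auxin-induced X10A VIT_202s0154g00010, of the SAUR family, was at 2.26, 2.53 and 2.53 FPKM with NAA and 0.728, 0.649 and 0.6603 FPKM with ABA (log2 difference 1.03 ± 0.24, SE, limma adjusted p = 0.00227). The IAA31 call was lost in 4 of 17 other settings and the X10A call in 2 of 16. The other 11 AUX/IAA genes tested had differences between -0.25 and 0.76 and were not called. Auxin response factor 18 VIT_215s0046g00290, a regulator of auxin-responsive genes, was at 2.74, 3.68 and 2.05 FPKM with NAA and 0.813, 1.07 and 0.8 FPKM with ABA without passing the test (limma adjusted p = 0.0609). Of 7 auxin synthesis genes, limma called 0 (3 lower at an unadjusted p under 0.05, 0 in the 6-library fit). TAR1 VIT_200s0225g00230, an aminotransferase of auxin synthesis, was at 359, 311 and 371 FPKM with NAA and 375, 343 and 318 FPKM with ABA, with overlapping values and a log2 difference of 0.00, while YUC6 VIT_204s0023g01480, of the next step, was at 9.53, 9.56 and 10.3 FPKM with NAA and 15.4, 15.6 and 18.2 FPKM with ABA (log2 difference -0.68, limma adjusted p = 0.0161).

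In ABA signalling, 1 of 28 members was called, beside 2.25% of all genes. At an unadjusted p under 0.05 there were 6 higher and 8 lower members (50.0%), beside 37.8% of all genes. A further member was called higher without ABA library 3 or without NAA library 3. The ABF-type factor VIT_204s0069g01150 (chromosome 4, 9841491 to 9842587), a bZIP protein that binds ABA-responsive promoters, was at 2.47, 2.29 and 3.497 FPKM with NAA and 7.79, 9.02 and 7.7 FPKM with ABA. Every NAA library was below every ABA library (log2 difference -1.300 ± 0.16, SE, limma adjusted p = 1.61e-06), the call held in all 17 other settings, and the controls lay between, at 6.81, 5.38 and 6.71 FPKM. The phosphatase genes VIT_206s0004g06840 and VIT_206s0004g05460, of the PP2C family, members of which switch off the SnRK2 kinases, had differences of -0.88 (limma adjusted p = 0.00299) and 0.54 (limma adjusted p = 0.103), both under the threshold of size. Of 7 ABA synthesis and breakdown genes tested, limma called 0 (2 higher and 1 lower at an unadjusted p under 0.05, and 0 in the 6-library fit). The NCED gene VIT_219s0093g00550, of the family that catalyses the rate-limiting cleavage of ABA synthesis, was at 7.88, 9.12 and 6.24 FPKM with NAA and 4.07, 4.74 and 4.79 FPKM with ABA (log2 difference 0.65, limma adjusted p = 0.109).

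Carotenoid cleavage dioxygenases, which release norisoprenoid aroma compounds from carotenoids, had 0 limma calls among 5 tested, with log2 differences from -0.17 to 1.01. CCD4b VIT_202s0087g00930 was at 62.6, 75.5 and 56.7 FPKM with NAA and 33.4, 42.9 and 21.8 FPKM with ABA, beside 15.3, 26.3 and 16.3 FPKM in controls. The groups did not overlap, but the limma adjusted p of 0.0125 missed the threshold (log2 difference 1.01). CCD4a VIT_202s0087g00910 was at 137, 138 and 142 FPKM with NAA and 74.2, 67.1 and 91.2 FPKM with ABA (log2 difference 0.85, limma adjusted p = 0.139). Of 25 carotenoid and norisoprenoid genes tested limma called 0 (3 higher and 4 lower at an unadjusted p under 0.05), 0 in the 6-library fit, 1 higher with the replicate block, with median-of-ratios scaling or with quantile normalization, and 2 higher without ABA library 2. GATA26 VIT_200s2393g00010, a zinc finger factor, was at 42.6, 43.8 and 38.2 FPKM with NAA and 41.9, 35.2 and 37.6 FPKM with ABA, with overlapping values.

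Colour genes of the flavonoid pathway had 0 limma calls among 13 tested (1 lower at an unadjusted p under 0.05, 0 in the 6-library fit). MYBA2 VIT_202s0033g00390, an activator of anthocyanin synthesis, was at 76.8, 77.4 and 62.9 FPKM with NAA and 36.6, 41.3 and 43.7 FPKM with ABA (log2 difference 0.82, limma adjusted p = 0.135). MYBA1 VIT_202s0033g00410, annotated as MYB90, ran the other way, at 6.69, 4.18 and 4.14 FPKM with NAA and 7.42, 7.83 and 7.74 FPKM with ABA (log2 difference -0.56). Among 5 genes of the berry pericarp chosen to check the tissue, 4 were tested, and the glucosyltransferase of anthocyanin synthesis, VIT_216s0039g02230, was listed at 0 in 5 of the 6 libraries. MYBPA1 VIT_215s0046g00170, an activator of proanthocyanidin synthesis, was at 2.65, 2.29 and 2.25 FPKM with NAA and 9.26, 4.8 and 8.84 FPKM with ABA and called lower (log2 difference -1.304 ± 0.34, SE, limma adjusted p = 0.00517), a call lost in 9 of 17 other settings.

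Primary metabolism gave scattered calls, beside 2.25% of all genes called. Phosphoenolpyruvate carboxylase VIT_212s0028g02180 (chromosome 12, 2964835 to 2973135), which makes oxaloacetate for malate synthesis, was at 11.1, 9.52 and 10.8 FPKM with NAA and 28.8, 28.3 and 30.2 FPKM with ABA, with little spread and no overlap (log2 difference -1.39 ± 0.16, SE, limma adjusted p = 5.35e-07), and it was the single call of 23 organic acid genes. Of 37 photosynthesis genes, CP26 VIT_218s0089g01170, a light-harvesting protein, was lower (4.87, 4.65 and 6.805 FPKM with NAA and 10.01, 12.1 and 14.1 FPKM with ABA, log2 difference -1.02), and a Rubisco small subunit VIT_211s0052g00810 higher (5.78, 5.88 and 8.31 FPKM with NAA and 3.74, 1.1 and 1.64 FPKM with ABA, log2 difference 1.35). The CP26 call was lost in 6 of 17 other settings and the Rubisco call in 2 of 16. Histones were above the median of all genes, with a median of 0.25 over 26 members. Histone H2A VIT_208s0040g03300, a DNA-packing protein, was at 24.9, 24.01 and 23.7 FPKM with NAA and 10.9, 12.01 and 14.3 FPKM with ABA, which did not overlap but stayed under the threshold of size (log2 difference 0.92, limma adjusted p = 2.25e-06). The list of 49 cell cycle and histone genes had 0 limma calls (10 higher and 3 lower at an unadjusted p under 0.05), 0 in the 6-library fit and 2 higher with median-of-ratios scaling.

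Further lists with 0 limma calls were ethylene synthesis and signalling (18 tested, 5 lower at an unadjusted p under 0.05), galactinol and raffinose synthesis (16 tested, 2 higher and 1 lower), pathogenesis-related proteins (61 tested, 6 higher and 18 lower), terpene synthesis (7 tested, 1 lower) and glutathione S-transferases (38 tested, 1 higher and 9 lower). The fit of the 6 libraries alone also called 0 in each of these 5 lists. The list of pathogenesis-related proteins does not hold the thaumatin-like gene VVTL1 VIT_202s0025g04330, which was called higher (log2 difference 2.53). Over all genes, 37.8% had an unadjusted p under 0.05, and 2.25% were called. Among aquaporins, the vacuolar water channel TIP3-2 VIT_203s0038g01410 was the single call of 20, at 2.19, 1.88 and 2.26 FPKM with NAA and 0.134, 0.1804 and 0.207 FPKM with ABA (log2 difference 1.405 ± 0.25, SE, limma adjusted p = 0.000143).

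The ripening switch genes that the study had grouped a to e by their response in these same samples, which makes them no independent evidence of direction, held 5 higher and 9 lower calls. Groups a to e had 17, 50, 16, 19 and 44 members tested. Over all genes, 0.523% were called higher and 1.73% lower. Group a had the highest median, 0.70 over 17 members, with 1 member called, VIT_204s0044g01230, at 145, 142 and 155 FPKM with NAA and 40.1, 50.2 and 60.3 FPKM with ABA (log2 difference 1.55 ± 0.30, SE, limma adjusted p = 0.000373). With the replicate block in the 6 libraries alone 4 were called, and without ABA library 2 or NAA library 1 there were 2. In 12 of the 17, all NAA libraries were above all ABA libraries, beside 12.1% of all genes. Group e had 1 higher and 5 lower calls among 44 members and a median of -0.04, which turned to 0.11 with median-of-ratios scaling, and without NAA library 1 it had 3 lower calls. Its lower members included the endoglucanase above and the brassinosteroid-regulated BRU1 gene VIT_205s0062g00610, an XTH relative, at 4.43, 5.89 and 4.62 FPKM with NAA and 11.6, 10.4 and 14.3 FPKM with ABA (log2 difference -1.13 ± 0.26, SE, limma adjusted p = 0.00214).

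The calls at harvest overlapped little with those of E-L 34 and E-L 35. Between NAA and ABA berries, 1539 genes (8.75%) were called at E-L 34, 378 (2.15%) at E-L 35 and 4350 (24.7%) at E-L 36. Of the 92 genes higher at E-L 38, 3 were also higher at E-L 34 and 13 were lower there, beside 5.8% and 2.95% of all genes. Of the 304 lower genes, 23 were also lower at E-L 34 and 46 were higher there, beside 2.95% and 5.8% of all genes. At E-L 35, 1 of the 92 and 8 of the 304 were called in the same direction, beside 1.18% and 0.966% of all genes. At E-L 36, where the NAA libraries lay near the position of ripe berries, 43 of the 92 and 209 of the 304 were called in the same direction, beside 12.7% and 12% of all genes. Calls at E-L 38 alone numbered 27 and 60. By the interaction term, the difference rose from E-L 34 in 61 of the 92 genes (3.06% of all genes), from E-L 35 in 53 (1.2%) and from E-L 36 in 34 (8.72%). It fell in 207 (10.4%), 192 (3.77%) and 43 (13.7%) of the 304 lower genes, and these changes share the E-L 38 libraries with the choice of the genes.

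Only 4 of the 304 genes were lower with NAA at all 4 stages, and 0 of the 92 were higher at all 4. VIT_205s0020g02170, an ERD6-like sugar transporter, differed by -1.80, -1.64, -1.28 and -1.51 over the 4 stages, and at harvest was at 3.799, 3.69 and 3.64 FPKM with NAA and 11.3, 13.4 and 12.5 FPKM with ABA. A tropinone reductase homolog, VIT_206s0004g05400, differed by -1.59, -1.61, -3.03 and -1.90, with 4.78, 4.68 and 5.11 FPKM with NAA and 22.1, 23.1 and 17.9 FPKM with ABA at harvest. MYBPA1 differed by -2.12, -1.58, -2.50 and -1.30, and the peroxidase VIT_212s0055g00810, of a family that acts on walls and phenolics, by -1.35, -1.02, -2.69 and -1.29.

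Reversals were found in both directions. VVTL1 VIT_202s0025g04330 had log2 differences of -8.02 at E-L 34, -3.43 at E-L 35 and 2.53 at harvest, all called. P24 oleosin VIT_214s0066g00700 went from -4.11 at E-L 34 to 3.22 at harvest. SWEET14-like VIT_217s0000g00820 went from -2.12 at E-L 36 to 4.24 at harvest, and the change between these stages was 6.35 (limma adjusted p = 6.91e-09). Oligopeptide transporter VIT_219s0015g00860, a carrier of short peptides, went from 1.96 at E-L 36 to -1.97 at harvest, at 3.45, 3.31 and 4.03 FPKM with NAA and 14.03, 12 and 28.4 FPKM with ABA. The class II heat shock gene VIT_204s0008g01520 went from 2.02 at E-L 34 to -2.72 at harvest. The E-L 36 values rest on NAA libraries that resembled ripe berries, so a change from E-L 36 compares ABA berries at 2 positions of ripening with NAA berries at 1.

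**Figure D5:**
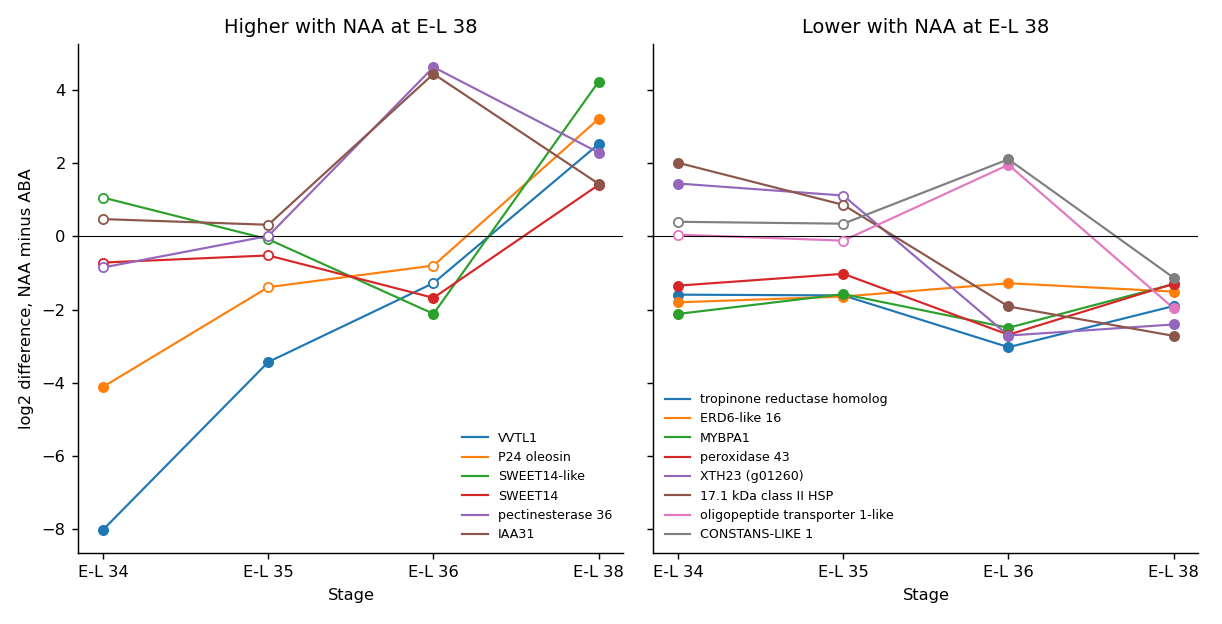
Log2 difference between NAA and ABA berries at each stage (4 groups of 3 libraries per hormone) for 6 genes higher with NAA at E-L 38 (left) and 8 genes lower (right), with filled points for calls and open points for differences that did not pass the test. VVTL1 runs from -8.02 at E-L 34 to 2.53 at E-L 38, and the tropinone reductase homolog, the ERD6-like transporter, MYBPA1 and the peroxidase are below 0 and called at every stage.

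Beside the control at E-L 38, with which both comparisons share the same 3 libraries, 602 genes (3.42%) were called for NAA, 70 higher (0.398%) and 532 lower (3.02%), and 114 (0.648%) for ABA, 32 higher (0.182%) and 82 lower (0.466%). Without control libraries 1 and 3 these higher and lower counts were 31 and 179 for NAA and 8 and 6 for ABA. Of the 92 genes higher with NAA than with ABA, 35 were called higher than the control in NAA berries and 8 lower than the control in ABA berries, with median differences from the control of 0.94 and -0.48. Of the 304 lower genes, 168 were called lower than the control in NAA berries and 11 higher in ABA berries, with medians of -1.12 and 0.19. Without the 2 control libraries these counts were 16, 4, 99 and 2, and the medians 0.89, -0.44, -1.04 and 0.31. EXORDIUM VIT_218s0001g06150, at 347, 442 and 380.5 FPKM in controls, differed from them by -3.13 with NAA and -0.92 with ABA, and by -3.31 and -1.11 from control library 2 alone. Allene oxide synthase VIT_218s0001g11630, at 83.2, 53.4 and 89.7 FPKM in controls, differed by -0.54 with NAA and -1.57 with ABA, and by -0.08 and -1.12 from control library 2 alone (limma adjusted p = 0.933 and 0.0938).

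Both groups lay close to the ripe control in their overall position. On the line from control E-L 34 to control E-L 38, NAA libraries were at 96.4%, 94.2% and 96.0% (mean 95.5 ± 1.16, SD, n = 3) and ABA libraries at 93.6%, 91.6% and 90.7% (mean 91.9 ± 1.48). The difference of 3.62 percentage points had a two-sided exact permutation p of 0.1, the smallest that 3 against 3 libraries can give. It was 1.75 points with quantile normalization (exact p = 0.2). With control library 2 as the only ripe control, the means were 103 ± 1.45 and 97.7 ± 1.84, 5.72 points apart (exact p = 0.1). Among the 92 genes higher with NAA, 28 (30.4%) rose and 17 (18.5%) fell from E-L 36 to E-L 38 in control berries, and among the 304 lower genes 50 (16.4%) rose and 78 (25.7%) fell, beside 9.47% and 7.76% of all genes. Without control libraries 1 and 3, 20 (21.7%) rose and 8 (8.7%) fell among the former and 25 (8.22%) and 71 (23.4%) among the latter, beside 6.59% and 6.74% of all genes. In these bulk samples fewer cells of a type and less RNA per cell cannot be told apart, and p-values measure the spread between plots of vines.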

How the data were processed

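RNA of deseeded berries was sequenced as 36 libraries, 3 per treatment (control, ABA, NAA) and stage. Per the study's methods, TopHat was the read mapper and the reference was the CRIBI grape genome. The submitters' processing notes name Bowtie, and the genome version and counting tool are not given in the sources used here. The deposited table holds FPKM, computed by the authors per library with no further scaling between libraries. Gene names and coordinates are those of that table. Treatments and stages are named in its columns, whose replicate numbers 1 to 3 are used here, since the labels letter the replicates. No column was left unmapped.

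Values were taken as log2(FPKM + 1), which understates changes of low genes. Genes at 1 FPKM or more in at least 3 of the 36 libraries were kept (17598 of 25280). All 12 groups were fitted together in limma 3.58.1 (R 4.3.3) with 24 residual degrees of freedom, with Benjamini-Hochberg adjustment of p over every gene tested. A gene was called at an adjusted p of 0.01 or less and a log2 difference of at least 1. Python 3.11.15 with numpy 2.4.6, pandas 2.3.3 and matplotlib 3.10.9 was used for summaries and figures. The table holds no counts, so the sequencing depth behind a value is unknown beyond the relative depth given, and no counting interval was set.

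Tested on simulated data for the NAA and ABA comparison at E-L 38 with 17598 genes, the fit recovered 100% of changes of 1.5, 2 and -2 and 96% of changes of -1.5 on the log2 scale, with 1 false call. The changed genes were all drawn from genes of higher expression with ABA, so recovery among genes of low FPKM was not tested. The replicate numbers came from the columns. Same-numbered NAA and ABA libraries deviated together, with correlations of 0.123, 0.145 and 0.248 over 17598 genes, so a replicate block was fitted as an alternative.

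Genes named in the text were, per direction, up to 12 called genes with the largest difference, at least 10 FPKM in the higher group, no overlap and a description, up to 4 called members of each list at 5 FPKM or more, up to 6 genes called alike at all 4 stages, up to 6 called in the opposite direction at E-L 36, genes the study names, and counterparts in the same step. The dehydrin, vicilin, stilbene synthase, heat shock and abundant genes described without a call were chosen after their values were seen, as were other single members named beside a list. The members and lists were chosen with earlier results of these data known, and the PAL, cinnamate hydroxylase and coumarate ligase entries were added to the phenylpropanoid list after values were seen. Alternatives covered the pseudocount (0.1), the filter (none, or a mean of at least 5 FPKM), TPM, median-of-ratios and quantile scaling, the libraries in the fit, the block and leaving out each library. Genes that did not pass the filter were not tested.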

Additional observations from a re-analysis of the deposited data

Results flagged for a closer look

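The difference between NAA and ABA berries at E-L 38 departed from that of earlier stages for many genes, by limma interaction terms over the same 36 libraries. Of the 92 genes higher with NAA, 61 also had a difference that rose from E-L 34, 53 one that rose from E-L 35 and 34 one that rose from E-L 36. Of the 304 lower genes, the difference also fell from E-L 34 in 207, from E-L 35 in 192 and from E-L 36 in 43. Beside these stand 3.06%, 1.2% and 8.72% of all genes called upward and 10.4%, 3.77% and 13.7% called downward. The E-L 38 libraries enter both the choice of the genes and these changes, so the counts describe the 396 genes and are no separate test of them.

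Some genes turned around between E-L 36 and E-L 38. The difference rose by 6.35 on the log2 scale in SWEET14-like VIT_217s0000g00820, by 4.90 in a proline-rich protein gene VIT_203s0017g02260, by 5.83 in the polygalacturonase inhibitor VIT_208s0007g07690 and by 4.71 in the homeobox gene ATHB-12 VIT_215s0048g02870. It rose by 6.10 in VIT_212s0059g00490 and by 4.73 in VIT_217s0000g06360, both without a functional name. The change was -3.93 in oligopeptide transporter VIT_219s0015g00860, -3.24 in the zinc finger gene CONSTANS-LIKE 1 VIT_216s0098g00360, -5.11 in VIT_208s0056g01610, -4.49 in VIT_214s0060g01870, -3.26 in VIT_211s0016g05430 and -3.17 in VIT_214s0060g01880, the last 4 without a functional name. NAA libraries labelled E-L 36 lay at 94.8% to 102% of the control's path and ABA libraries at 33.6% to 35.5%, and the part of that gap in these changes was not tested.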

How the results depend on the processing

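No called gene changed sign under any of the 15 planned settings or the 2 chosen after seeing the data, and 27 of the 73 called named genes kept the call in all 17. With a pseudocount of 0.1 the calls at E-L 38 were 152 higher and 658 lower, and 1062 genes had a difference that fell from E-L 35. Requiring a mean of 5 FPKM left 48 higher calls among 10553 genes tested, and 966 and 1549 genes whose difference fell from E-L 34 and E-L 36. With TPM, 537 were lower, and 3348 genes fell from E-L 34, 1352 from E-L 35 and 4264 from E-L 36. With median-of-ratios scaling, 139 were higher, 850 rose and 957 fell from E-L 34, 327 fell from E-L 35 and 1184 from E-L 36. With quantile normalization, 198 were lower, 813 rose and 976 fell from E-L 34, 307 fell from E-L 35 and 1555 from E-L 36, and the difference in position was 1.75 points. Median-of-ratios and quantile scaling shift the median of all genes, and the cause of the other moves was not tested. Leaving out 1 library gave 71 to 93 higher and 229 to 327 lower calls and a difference in position of 2.99 to 4.43 points. With the replicate block the calls were 97 and 302, and with the block in the 6 libraries alone 74 and 254. Of the 73 called named genes, the block in all 36 libraries ended the call of 2, PAL VIT_216s0039g01170 and ERF2 VIT_202s0234g00130, and the block in the 6 libraries that of 13, among them SWEET14, IAA31, allene oxide synthase and MYBPA1. Without control libraries 1 and 3, the NAA calls against the control were 31 and 179 and the ABA calls 8 and 6, and the difference in position was 5.72 points. FPKM without counts limits what can be said of genes near 1 FPKM.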

Other observations

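Several of the genes lower with NAA lay side by side. Within 50000 bases of each other and in runs of at least 3, 7 runs were found, all of lower genes. The longest, on chromosome 12 from 8770227 to 8844605, held 8 called genes among 10 tested, from VIT_212s0057g00060 to VIT_212s0057g00170, with log2 differences from -2.25 to -1.53, and most lack a functional name. The XTH23 run on chromosome 11 (18940464 to 19015143) held 5 of 12, the EXORDIUM run on chromosome 18 (4594155 to 4659571) 4 of 9 and a run of tropinone reductase homologs on chromosome 6 (6196899 to 6257928) 4 of 7. The other 3 runs, of 3 called genes each, were on chromosomes 5, 7 and 12, and that on chromosome 12 (7708817 to 7769369) included PBP1 and an XTH gene. Neighbouring copies of similar sequence can share reads, so the members of a run are not separate observations.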
